A study of Cricetulus griseus with 10 samples.

Results

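The glycolysis, lactate and pyruvate entry genes are a list of 35, covering glucose uptake, the glycolytic enzymes, lactate production and export, mitochondrial pyruvate entry and its kinases, with Hif1a. They were found by symbol or by Chinese hamster gene number in the deposited table. Of the 35, 34 were matched and 31 had a mean of at least 10 normalised reads over the 10 libraries, among 13521 such features of 25156. The glucose transporter Slc2a3 was not matched. Aldoc, an aldolase, had 19 reads in all libraries together, Ldhb, the heart-type lactate dehydrogenase subunit, had 17, and Slc16a3, a lactate exporter, had 1. These 3 were not tested, so no comparison is made for them.

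Glycolysis splits glucose into pyruvate in the cytosol. Pyruvate is then either reduced to lactate and exported, or carried into mitochondria and turned into acetyl-CoA by the pyruvate dehydrogenase complex, which the pyruvate dehydrogenase kinases switch off by phosphorylation. CHO cells in culture are known for fast glucose uptake and lactate release, and the transcription factor subunit Hif1a is known in mammals as an activator of many glycolytic genes under low oxygen.

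RNA was taken from wild-type CHO-K1, an established cell line from Chinese hamster ovary, at passages 0, 2, 4, 6 and 10 of adaptation to suspension in the serum-free medium SFM4CHO, written P0, P2, P4, P6 and P10. Each passage had 2 libraries, and the labels do not say whether a pair came from separate cultures. The p-values below therefore cover the spread between libraries alone, which may be technical. The labels do not say how the P0 cells were grown, so medium, growth mode and time in culture cannot be told apart between P0 and the later passages. Values are read counts divided by a size factor per library, called normalised reads below. They are not corrected for gene length, so levels are compared between libraries and not between genes.

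Library totals ranged from 8394219 to 16599495 reads. The duplicates of P0, P2 and P4 correlated at 0.988 to 0.992 across genes on the log2 scale, those of P6 at 0.956 and those of P10 at 0.930. P6 replicate 2 and P10 replicate 1 stood apart from the rest: the feature named Dym held 1.15% and 1.41% of their normalised reads, against 4.32 to 13.5% in the other 8 libraries. Of the mesenchymal markers, Vim, Fn1 and Pdgfrb had means of 16373, 3813 and 604 normalised reads, and Col1a1 and Col1a2 had 17.0 and 0.947. Of the epithelial markers, Cdh1 had a mean of 186, Epcam 8.94, and Krt8, Krt18 and Krt19 0.112 to 2.24. Of the ovarian granulosa markers, Fshr, Amh and Inha had means of 24.1, 13.9 and 12.3. The 5 leukocyte markers summed to 52.3 at P0, 101 at P2, 187 at P4, 172 at P6 and 128 at P10 (means of 2 libraries), with Cd68 at a mean of 66.2, Itgax at 31.6, Ptprc at 18.0, Laptm5 at 12.2 and Cd14 at 0.08. The part of these features in the results below was not tested.

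The genes did not move as a block. Against P0, 3 genes rose and 3 fell at P10, and 3 rose and 3 fell at P6, out of 31 each time. At P4, 1 rose and 2 fell, and at P2 none rose and 1 fell. These are 19.4%, 19.4%, 9.68% and 3.23% of the genes, beside 17.0%, 21.0%, 9.24% and 4.15% of all 13521 features at P10, P6, P4 and P2, so the share called was near the background in every passage. By direction, 8.77% of all features were higher and 8.25% lower at P10, 10.5% and 10.5% at P6, 3.72% and 5.52% at P4, and 2.08% and 2.07% at P2. The libraries of a later passage did not overlap with those of P0 for 21 of the 31 genes at P2, 20 at P4, 22 at P6 and 14 at P10, beside 67.1%, 72.4%, 67.7% and 54.3% of all features. The test was limma with Benjamini-Hochberg adjustment over all features, with a threshold of 0.05. The median log2 difference from P0 over the 31 genes was -0.15 at P2, -0.04 at P4, -0.41 at P6 and -0.05 at P10, beside 0.01, 0.03, -0.07 and 0.00 over all features. The late duplicates differed in this: the median was -0.13 and -0.52 in P6 replicates 1 and 2, and -0.39 and 0.30 in P10 replicates 1 and 2. Over all features it was -0.01, -0.10, -0.04 and 0.07 in those libraries. In bulk RNA, fewer cells of a type and less RNA per cell cannot be told apart.

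**Figure D1:**
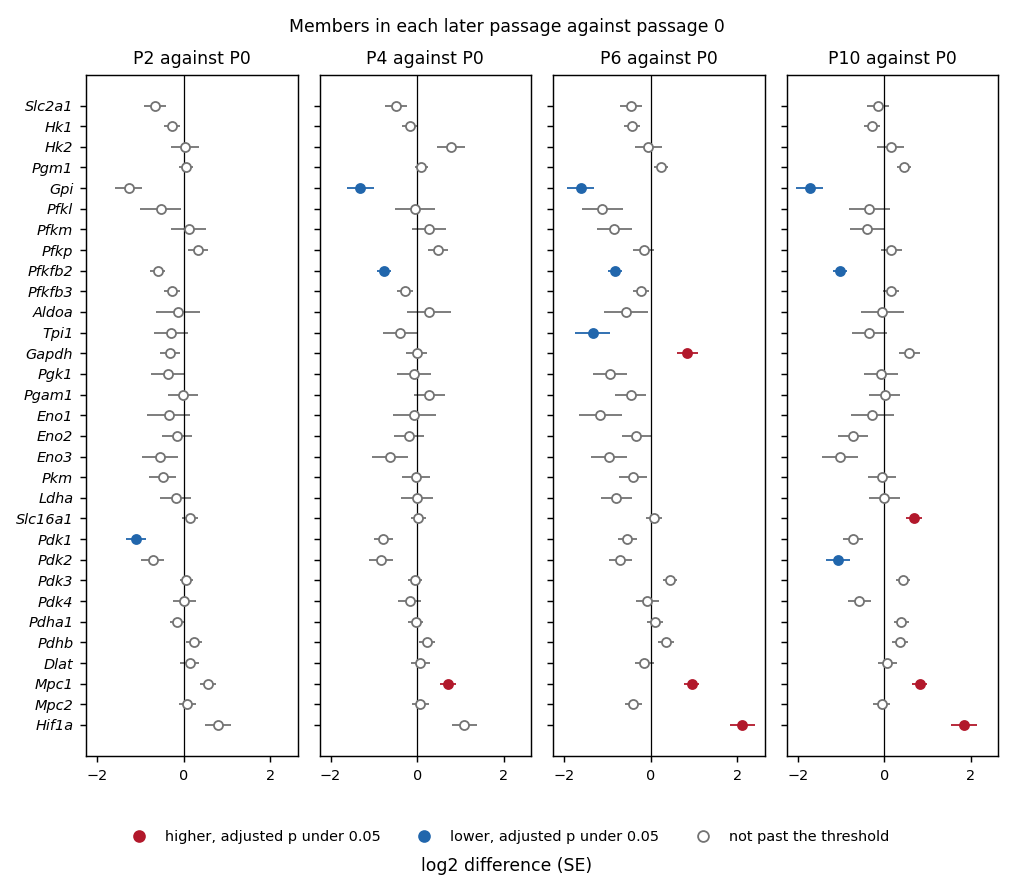
Log2 difference from P0 (x axis, with SE) for each of the 31 genes (y axis) at P2, P4, P6 and P10. Red points rose and blue points fell at an adjusted p under 0.05, and open points did not pass; Gpi, Pfkfb2, Mpc1 and Hif1a are the genes called in more than 1 passage.

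The genes called at P10 were Hif1a, Mpc1 and Slc16a1 on the higher side and Gpi, Pfkfb2 and Pdk2 on the lower side. At P6 they were Hif1a, Mpc1 and Gapdh, higher, and Gpi, Pfkfb2 and Tpi1, lower. At P4 they were Mpc1, higher, and Gpi and Pfkfb2, lower, and at P2 Pdk1, lower. In the comparison of P10 with P2, 0 of 31 passed by limma and 0 by edgeR, beside 1.26% and 1.01% of all features. By limma, 0.621% of all features were higher and 0.636% lower. DESeq2 called 2 of the 31 (6.45%), Gapdh and Hif1a, both higher, beside 6.15% of all features. By limma, 7 of the 31 had an unadjusted p under 0.05, and the share of all features under it was not counted. For 17 genes the P10 libraries did not overlap with those of P2, beside 42.7% of all features. The comparisons with P0 share the same P0 libraries. These counts depend on single libraries. Without P0 replicate 1 or P0 replicate 2, the count fell to 0 and 2 at P10, 1 and 2 at P6, and 0 and 0 at P4 and at P2. The share of all features fell as well, to 2.33% and 4.73% at P10 and 3.05% and 5.19% at P6. At P4 it was 1.31% and 2.50%, and at P2 0.651% and 0.754%. Leaving out any of the P2 or P4 libraries also gave 0 at P2 and P4, beside 0.451 to 1.54% and 1.06 to 5.16% of all features. Without P10 replicate 1 or P10 replicate 2 it was 13 in each case at P6, 6 in each case at P4 and 4 in each case at P2, and without P10 replicate 2 it was 9 at P10 and 6 in P10 against P2. Beside these, 40.2%, 20.4 to 20.6% and 11.6 to 11.7% of all features passed at P6, P4 and P2, and without P10 replicate 2 35.0% at P10 and 25.9% in P10 against P2. The genes gained at P6 in both of those fits were Hk1, Pfkl, Pfkm, Pgk1, Eno1 and Ldha, lower, and Pdk3, higher. At P4 they were Hk2 and Hif1a, higher, and Pdk1, lower, and at P2 Hif1a, higher, and Gpi and Pfkfb2, lower. Without P10 replicate 2, Eno1 and Eno2 were also lower and Pdk3 higher at P10, and against P2 Gapdh, Pdk3, Pdha1 and Hif1a were higher and Gpi and Eno2 lower. With both P6 replicate 2 and P10 replicate 1 left out, the counts were 12 at P2, 10 at P4, 16 at P6 and 19 at P10, which are 38.7%, 32.3%, 51.6% and 61.3% of the genes, beside 34.1%, 43.1%, 48.8% and 46.3% of all features in that fit.

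**Figure D2:**
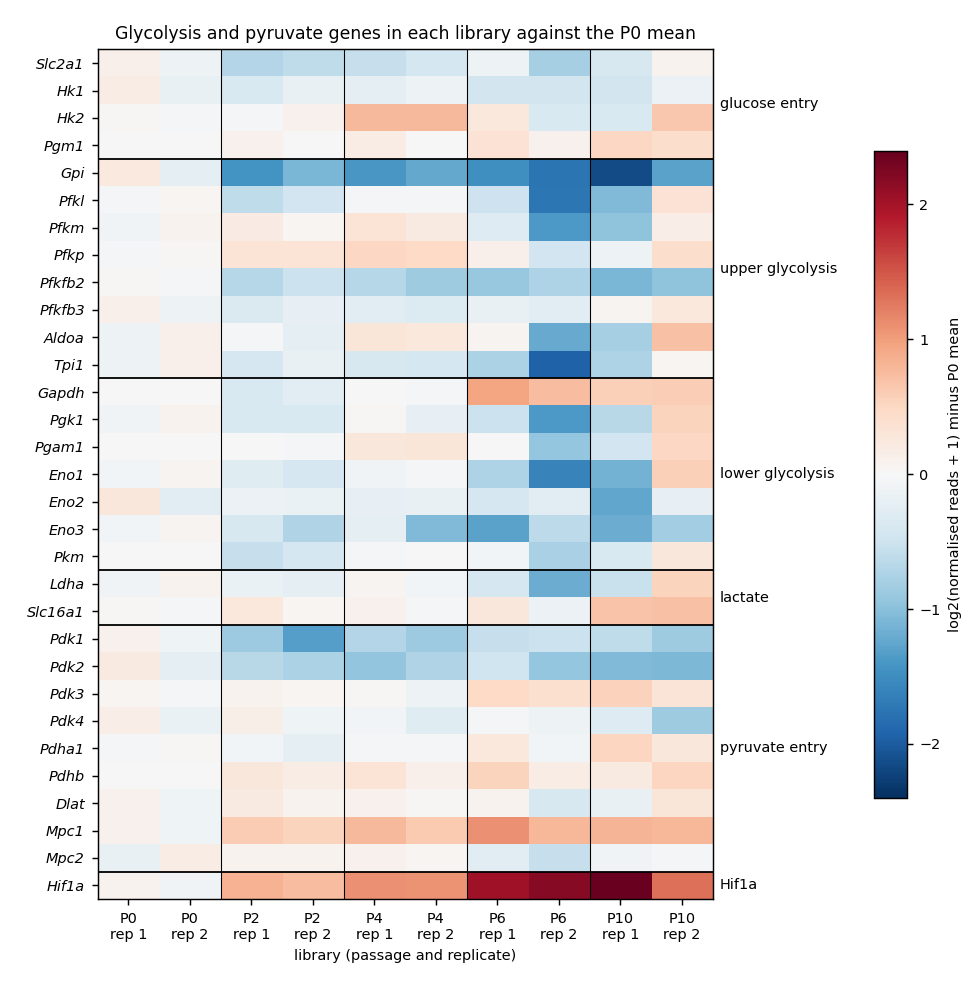
Each cell is log2(normalised reads + 1) of a gene in 1 library minus the mean of the 2 P0 libraries, from blue (lower) to red (higher), with the libraries in passage order on the x axis and the genes on the y axis in groups by role. Hk1, Gpi, Pfkfb2, Eno2, Eno3, Pdk1 and Pdk2 are blue in all 8 later libraries, and Pdhb, Mpc1 and Hif1a are red in all 8, some only faintly. Many enzymes are blue in P6 replicate 2 and P10 replicate 1 but red in P10 replicate 2.

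Glucose entry was covered by 4 tested genes, and none passed in any comparison. Hk1, a hexokinase that traps glucose as glucose 6-phosphate, had 2724 and 2141 normalised reads at P0, then 1868 and 2124 (P2), 2075 and 2220.3 (P4), 1788 and 1774 (P6) and 1791 and 2180.4 (P10). Its P6 libraries lay below both P0 libraries, and its P10 libraries overlapped with them (log2 difference -0.29 at P10, SE 0.18, adjusted p = 0.319 by limma). Slc2a1, the broadly expressed glucose transporter GLUT1, had 527 and 563 at P2 and 938 and 785 at P0, with no overlap (log2 difference -0.65, SE 0.25, adjusted p = 0.202). It had 654 and 909 at P10, which overlapped with P0.

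Hk2, the hexokinase associated with proliferating and insulin-responsive cells, showed its highest values at P4. It had 661 and 637 normalised reads at P0, then 628 and 699.6 (P2), 1110.2 and 1115 (P4), 769 and 506 (P6) and 505 and 1013 (P10). Both P4 libraries were higher than all the others, but the difference from P0 did not pass (log2 difference 0.78, SE 0.32, adjusted p = 0.172 by limma). The spread that limma pools for Hk2 includes the P10 duplicates, which differed 2.01-fold. From the P0 and P4 libraries alone it passed (adjusted p = 0.00017 by limma), where 42.0% of all features passed, beside 9.24% with all libraries. It also passed without P10 replicate 1 or P10 replicate 2, and with both P6 replicate 2 and P10 replicate 1 left out. In those fits, too, a larger share of all features passed at P4 than with all libraries. Set against Hk1, the log2 ratio of Hk2 to Hk1 reads was -2.04 and -1.75 at P0, -0.90 and -0.99 at P4, and -1.83 and -1.11 at P10. Pgm1, which interconverts glucose 1-phosphate and glucose 6-phosphate, had 1396 and 1327 at P10 and 1001 and 986 at P0, with no overlap (log2 difference 0.45, SE 0.16, adjusted p = 0.0824).

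In upper glycolysis, from glucose 6-phosphate to the triose phosphates, 2 of the 8 tested genes fell at P10, 3 at P6, 2 at P4 and none at P2, and none rose. Of all features, 8.25%, 10.5%, 5.52% and 2.07% were lower in those passages. Gpi, glucose-6-phosphate isomerase, the enzyme of the second step, had 562 and 405 normalised reads at P0, then 175 and 222 (P2), 180.1 and 203 (P4), 171 and 140.4 (P6) and 106 and 194 (P10). All 8 later libraries were lower than both P0 libraries. The log2 difference was -1.27 at P2 (SE 0.31, adjusted p = 0.0602, not past the threshold), -1.32 at P4 (adjusted p = 0.0334), -1.62 at P6 (0.0101) and -1.72 at P10 (0.00868), by limma. DESeq2 called the P2 difference too (0.00409). Without P0 replicate 1 the P4, P6 and P10 calls were lost (adjusted p = 0.249, 0.0975 and 0.0941). The P10 call was also lost from the P0 and P10 libraries alone (0.109), and the P4 call when any of the P0, P2 or P4 libraries was left out (0.0644 to 0.249).

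Pfkfb2 makes and degrades fructose 2,6-bisphosphate, the strongest known activator of phosphofructokinase. It had 611 and 586 normalised reads at P0, then 371 and 419 (P2), 372 and 331 (P4), 319 and 356 (P6) and 281 and 307 (P10). The lowest P0 library stood above the highest of the 8 later ones, and the later duplicates lay close together. The log2 difference from P0 was -0.60 at P2 (SE 0.17, adjusted p = 0.0921), -0.77 at P4 (0.0260), -0.83 at P6 (0.0129) and -1.02 at P10 (0.00644). DESeq2 called the P2 difference (0.0469). At P10 it no longer passed without P0 replicate 1 (adjusted p = 0.0701) or from the P0 and P10 libraries alone (0.120). The P6 call was lost without P0 replicate 1 (0.102) or P0 replicate 2 (0.0749), and the P4 call when any of the P0, P2 or P4 libraries was left out (0.0639 to 0.234). Its relative Pfkfb3, an enzyme of the same reaction, did not pass in any comparison: it had 263 and 299.7 at P10 and 274 and 233 at P0 (log2 difference 0.15, SE 0.19, adjusted p = 0.618).

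**Figure D3:**
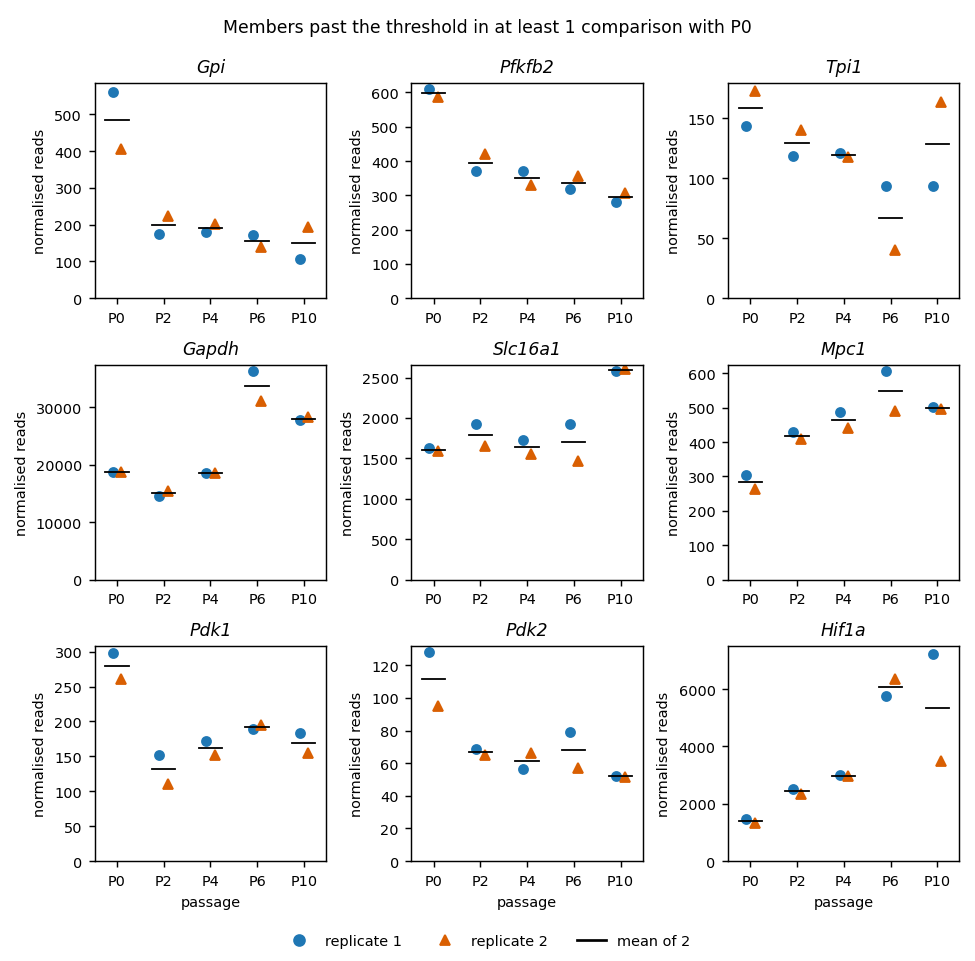
Normalised reads (y axis, from 0) by passage (x axis) in replicate 1 (circles) and replicate 2 (triangles), with the mean of the 2 as a line, for the 9 genes past the threshold in at least 1 comparison with P0. Gpi, Pfkfb2, Pdk1 and Pdk2 lie lower in every later library than at P0, and Mpc1 and Hif1a lie higher. Slc16a1 lies higher at P10, with 2585 and 2603.

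The 3 phosphofructokinase genes, which catalyse the committed step, did not pass in any comparison. Pfkl, the liver-type subunit, had 2879.8 and 3106 normalised reads at P0, then 1970.4 and 2169 (P2), 2886 and 2883 (P4), 2109 and 894 (P6) and 1442 and 3826 (P10). Its P10 libraries lay on both sides of P0 and differed 2.65-fold. Pfkm, the muscle-type subunit, had 1294 and 593 in P10 replicates 2 and 1, a 2.18-fold difference, and 1082 and 1230.2 at P0. Pfkp, the platelet-type subunit, varied less, between 607 and 1176 over the 10 libraries, with both P4 libraries (1176 and 1159.7) above both P0 libraries (818 and 855).

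Aldoa, the aldolase that cleaves fructose 1,6-bisphosphate, differed widely between the late duplicates. It had 9231 and 11043 normalised reads at P0, then 9781 and 8679 (P2), 12326 and 11978 (P4), 10508 and 4358 (P6) and 5843 and 16346 (P10). The 2 P10 libraries differed 2.80-fold and the 2 P6 libraries 2.41-fold, and the log2 difference of P10 from P0 was -0.05 (SE 0.51, adjusted p = 0.960). Tpi1, triosephosphate isomerase, had 144 and 172 at P0, then 119 and 139.7 (P2), 121 and 118 (P4), 93.1 and 40.4 (P6) and 93.7 and 163 (P10). It fell at P6 (log2 difference -1.34, SE 0.40, adjusted p = 0.0447 by limma) and was not called at P10 (-0.35, adjusted p = 0.602). At P6 it no longer passed without P6 replicate 2, its lowest library (adjusted p = 0.199), when any of the P0, P2 or P4 libraries was left out (0.0765 to 0.203), from the P0 and P6 libraries alone (0.0679), with no filter on low values (0.0569) and by edgeR (0.0582).

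In lower glycolysis, from the triose phosphates to pyruvate, 1 of 7 genes rose at P6, Gapdh, and none passed at P2, P4 or P10. Of all features, 10.5% were higher at P6. Gapdh, glyceraldehyde-3-phosphate dehydrogenase, which makes the NADH that lactate dehydrogenase later consumes, had close duplicates in every passage. It had 18832 and 18764 normalised reads at P0, then 14592 and 15526 (P2), 18661 and 18525 (P4), 36388 and 31214 (P6) and 27767 and 28324 (P10). All 4 P6 and P10 libraries were higher than all 6 earlier ones. The log2 difference was 0.84 at P6 (SE 0.24, adjusted p = 0.0366) and 0.58 at P10 (adjusted p = 0.127, not past the threshold). DESeq2 on recovered reads called the P10 difference (adjusted p = 0.00227). At P6 it no longer passed without P6 replicate 1 (adjusted p = 0.0752), when any of the P0, P2 or P4 libraries was left out (0.0824 to 0.181), from the P0 and P6 libraries alone (0.0882) and with no filter on low values (0.0897). Gapdh and several of its neighbours have processed copies in mammalian genomes, and the counting rule is not given in the sources used here, so their counts carry that uncertainty.

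The next enzymes of the pathway had other patterns. Pgk1, phosphoglycerate kinase, had 5996 and 6745 normalised reads at P0, then 4930.1 and 4933 (P2), 6447 and 5576 (P4), 4447 and 2440.1 (P6) and 3991 and 9174 (P10). Eno1, the broadly expressed enolase, had 11442 and 12371 at P0, then 9780.1 and 9009 (P2), 11246 and 11464 (P4), 7140.1 and 3933 (P6) and 5399 and 17759.6 (P10). For both genes the P6 libraries lay below both P0 libraries and the P10 libraries lay on both sides of them. Neither passed at P6 (log2 differences -0.95 and -1.17, adjusted p = 0.114 and 0.121) or at P10 (-0.07 and -0.28, adjusted p = 0.921 and 0.741). The log2 ratio of Gapdh to Eno1 reads was 0.58 to 0.79 over the 6 libraries up to P4. It was 2.35 and 2.99 at P6, and for P10 it was 2.36 in replicate 1 and 0.67 in replicate 2.

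Pgam1, phosphoglycerate mutase, ranged from 2869 in P6 replicate 2 to 7679.9 in P10 replicate 2, and Pkm, the pyruvate kinase of most tissues, from 13009 to 26772 in the same libraries. Neither passed in any comparison. Eno2, the enolase named for neurons, had 59.1 in P10 replicate 1 and 107 to 171 in the other libraries. Eno3, the muscle enolase, had few reads, with 12.7 and 16.4 normalised reads at P10 and 28.7 and 31.6 at P0, and no overlap (log2 difference -1.02, SE 0.42, adjusted p = 0.128).

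Many of these differences lay between the duplicates of the late passages. P6 replicate 2 was the lowest of the 10 libraries for 15 of the 31 genes (48.4%, beside 25.2% of all features), and P10 replicate 2 was the highest for 10 (32.3%, beside 17.7%). In P6 replicate 2 and P10 replicate 1, 8 and 7 of 31 genes were at least 2-fold below the P0 mean (25.8% and 22.6%, beside 16.5% and 14.2% of all features). Between the P10 duplicates 9 genes differed at least 2-fold (29.0%, beside 24.5% of all features), and between the P6 duplicates 4 did (12.9%, beside 13.9%). No gene differed 2-fold between the duplicates of P0, P2 or P4.

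Of the 31 genes, 13 lay below the P0 mean in P6 replicate 2 and in P10 replicate 1 and above it in P10 replicate 2 (41.9%, beside 19.1% of all features). This pattern was set after values of these genes were seen, so the higher share describes the genes and tests nothing. They were Slc2a1, Hk2, Pfkl, Pfkm, Pfkp, Aldoa, Tpi1, Pgk1, Pgam1, Eno1, Pkm, Ldha and Dlat. Hif1a was higher in P10 replicate 1 (7209) than in P10 replicate 2 (3492), and Gapdh was alike in both. With P6 replicate 2 and P10 replicate 1 left out of the fit, the P10 difference of a gene is that of P10 replicate 2 alone. Its higher sign in these genes was therefore fixed by how they were picked. The log2 difference was 0.36 for Pfkl, 0.70 for Aldoa, 0.53 for Pgk1, 0.58 for Eno1 and 0.54 for Ldha, each below 0 with all libraries. In that fit P10 was 1 library, assumed to vary like the other passages.

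**Figure D4:**
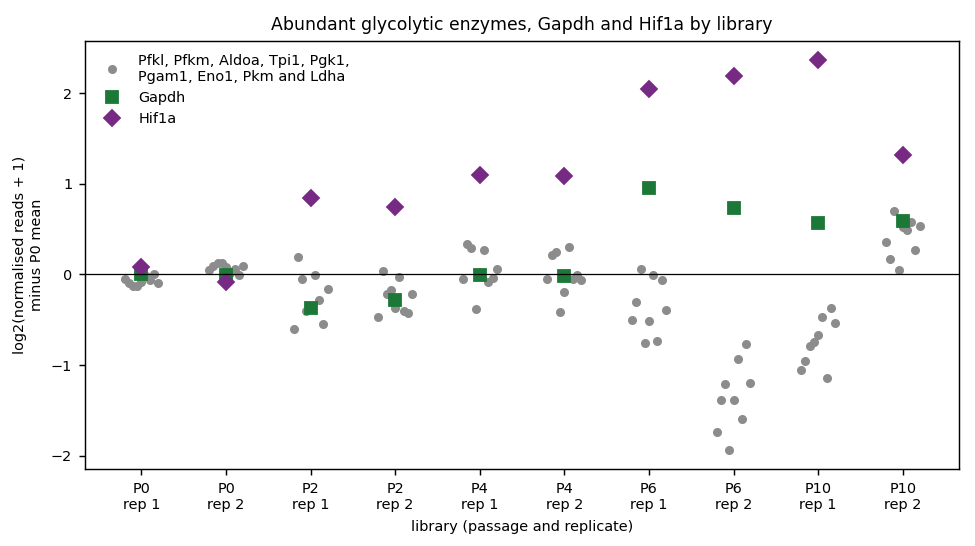
Log2(normalised reads + 1) minus the P0 mean (y axis) in each library (x axis) for 9 enzymes picked after their values were seen (Pfkl, Pfkm, Aldoa, Tpi1, Pgk1, Pgam1, Eno1, Pkm and Ldha, grey circles), Gapdh (green squares) and Hif1a (purple diamonds). These enzymes, which are 9 of the 13 genes with that pattern, lie below 0 in P6 replicate 2 and P10 replicate 1 and above 0 in P10 replicate 2, whereas Gapdh and Hif1a lie above 0 in all 4 libraries of P6 and P10.

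Lactate production and export were covered by 2 tested genes. Ldha, the subunit of the lactate dehydrogenase that favours lactate formation, had 7054 and 8027 normalised reads at P0, then 6756 and 6462 (P2), 7844 and 7222 (P4), 5724 and 3280.4 (P6) and 5180.2 and 10919 (P10). Its P10 libraries lay on both sides of P0 (log2 difference 0.00, SE 0.37, adjusted p = 0.999), and it did not pass in any comparison. Slc16a1, the proton-coupled lactate and pyruvate carrier MCT1, had 1632 and 1585 at P0, then 1924 and 1654 (P2), 1723 and 1557 (P4), 1931 and 1467 (P6) and 2585 and 2603 (P10). Its P10 libraries lay close together and stood above all the others. It rose at P10 (log2 difference 0.69, SE 0.18, adjusted p = 0.0336 by limma), and at P2, P4 and P6 the differences were 0.15, 0.03 and 0.07. The call was lost when any of the P0, P2 or P4 libraries was left out (adjusted p = 0.0663 to 0.166), from the P0 and P10 libraries alone (0.190) and with no filter on low values (0.0516).

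Pyruvate entry into mitochondria runs through a carrier made of Mpc1 and Mpc2. Mpc1 had 305 and 263 normalised reads at P0, then 430.1 and 408 (P2), 488 and 441 (P4), 608 and 491 (P6) and 502 and 495 (P10). All 8 later libraries were higher than both P0 libraries. The log2 difference was 0.56 at P2 (SE 0.18, adjusted p = 0.124, not past the threshold), 0.71 at P4 (0.0418), 0.95 at P6 (0.00936) and 0.81 at P10 (0.0171). The P6 and P10 calls were lost without P0 replicate 1 (adjusted p = 0.0573 and 0.0830) and without P0 replicate 2 (0.0780 and 0.121), the P10 call from the P0 and P10 libraries alone (0.168), and the P4 call when any of the P0, P2 or P4 libraries was left out (0.0938 to 0.282) and with no filter on low values (0.0576). Mpc2 had 297 and 308 at P10 and 279 and 359 at P0, with overlap (log2 difference -0.06, SE 0.19, adjusted p = 0.854). The log2 ratio of Mpc1 to Mpc2 reads was 0.13 and -0.45 at P0, 1.21 and 1.19 at P6, and 0.76 and 0.68 at P10; the difference between the 2 subunits was not tested.

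Among the 4 kinases that inactivate pyruvate dehydrogenase, Pdk1 fell at P2 and Pdk2 at P10, where 2.07% and 8.25% of all features were lower. Pdk1, a known HIF target in mammals, had 299 and 262 normalised reads at P0, then 152 and 111 (P2), 172 and 152 (P4), 189 and 194 (P6) and 183 and 155 (P10). The 8 later libraries were all lower than both P0 libraries. It fell at P2 (log2 difference -1.10, SE 0.22, adjusted p = 0.0311), and the differences were -0.79 at P4 (0.0600), -0.54 at P6 (0.111) and, at P10, -0.73 (0.0546), which did not pass. At P10 edgeR and DESeq2 called it (adjusted p = 0.0440 and 0.0284), and at P4 DESeq2 did (0.0289). The P2 call was lost when any of the P0, P2 or P4 libraries was left out (adjusted p = 0.0820 to 0.286).

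Pdk2, the most widely expressed isoform, had 128 and 94.9 normalised reads at P0, then 68.7 and 64.8 (P2), 56.4 and 66.4 (P4), 79.0 and 57.3 (P6) and 52.3 and 51.5 (P10). The later libraries again lay wholly below P0. It fell at P10 (log2 difference -1.07, SE 0.27, adjusted p = 0.0294), a call lost when any of the P0, P2 or P4 libraries was left out (0.0624 to 0.213), from the P0 and P10 libraries alone (0.180) and with no filter on low values (0.0514). Pdk3 had 1157 and 976 at P10 and 818 and 766 at P0, with no overlap (log2 difference 0.42, SE 0.16, adjusted p = 0.0992). Pdk4, known for its induction in fasting, had 80.2 and 54.6 at P10 and 111 and 89.1 at P0 (log2 difference -0.58, SE 0.27, adjusted p = 0.167). The log2 ratio of Pdk3 to Pdk1 reads was 2.22 to 2.88 in the 8 later libraries and 1.45 and 1.55 at P0.

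The subunits of the complex itself did not pass in any comparison. Pdha1, the catalytic subunit that the kinases phosphorylate, carries the sites they act on. It had 2457 and 2547 normalised reads at P0, then 2376 and 2158 (P2), 2415 and 2451 (P4), 2967 and 2402 (P6) and 3565 and 3008 (P10). Its P10 libraries lay above both P0 libraries (log2 difference 0.39, SE 0.18, adjusted p = 0.165). Its partner Pdhb had 680.1 and 839 at P10 and 587 and 584 at P0, with no overlap (log2 difference 0.37, adjusted p = 0.210). Dlat, the acetyl transferase core, had 1042 and 1446 at P10 and 1267 and 1091 at P0, with overlap.

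Hif1a had the largest rise of the 31 genes at P6 and P10. It had 1483 and 1324 normalised reads at P0, then 2513 and 2355 (P2), 2996 and 2973 (P4), 5775 and 6367 (P6) and 7209 and 3492 (P10). The 8 later libraries were all higher than both P0 libraries, and P10 replicate 2 lay between P4 and P6. The log2 difference was 0.80 at P2 (SE 0.30, adjusted p = 0.187), 1.09 at P4 (0.0531), 2.11 at P6 (0.00309) and 1.84 at P10 (0.00579), a 4.33-fold rise at P6 and a 3.58-fold rise at P10. The P4 difference passed by DESeq2 (0.0105) and from the P0 and P4 libraries alone (2.86e-05). The P6 call held in all 21 alternatives run for it (highest adjusted p = 0.0368). At P10 it no longer passed without P0 replicate 1 (adjusted p = 0.0554), without P0 replicate 2 (0.0507) and from the P0 and P10 libraries alone (0.104).

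HIF activity is known to be set mainly by protein stability under the control of oxygen-sensing hydroxylases, and protein was not measured. Of 23 tested genes of HIF partners, oxygen sensors and HIF targets outside glycolysis, 4 were lower and none higher at P10, 6 lower and 2 higher at P6, 3 lower and none higher at P4, and 2 lower and none higher at P2. Of all features, 8.25%, 10.5%, 5.52% and 2.07% were lower in those comparisons. The median log2 difference of the list at P10 was -0.30, beside 0.00 over all features. Ero1l, an oxidoreductase of the endoplasmic reticulum known as a HIF target in mammals, had 443 and 390.2 normalised reads at P10 and 1169 and 897 at P0 (log2 difference -1.30, SE 0.21, adjusted p = 0.00580). Ak4, a mitochondrial adenylate kinase, had 89.4 and 78.0 at P10 and 215 and 184 at P0 (-1.24, adjusted p = 0.0142), and Epas1, the HIF-2 alpha subunit, had 24.5 and 28.9 at P10 and 180.3 and 128 at P0 (-2.47, adjusted p = 0.00755). Without P0 replicate 1 these P10 calls were lost (highest adjusted p = 0.0699 for Ero1l, 0.0822 for Epas1 and 0.125 for Ak4 over the fits that left out 1 library), and Ak4 was lost also without P0 replicate 2. None of the 3 passed from the P0 and P10 libraries alone.

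Around pyruvate, 13 tested genes of the rest of the pyruvate dehydrogenase system and pyruvate carboxylation were listed, of which 1 rose and 1 fell at P10 and at P6, and 1 rose and none fell at P4 and at P2. Of all features, 8.77% were higher and 8.25% lower at P10, 10.5% and 10.5% at P6, 3.72% and 5.52% at P4, and 2.08% and 2.07% at P2. Pcx, pyruvate carboxylase, which makes oxaloacetate from pyruvate, was the gene that rose in all 4 passages, with 947 and 1307 normalised reads at P10 and 604 and 453 at P0 (log2 difference 1.09, SE 0.22, adjusted p = 0.0129). Pdpr, a regulatory subunit of the phosphatase that reactivates pyruvate dehydrogenase, had 228 and 323 at P10 and 606 and 552 at P0 (log2 difference -1.09, SE 0.21, adjusted p = 0.0114). Both P10 calls were lost without P0 replicate 1 or P0 replicate 2 and from the P0 and P10 libraries alone, with adjusted p up to 0.100 for Pcx and 0.108 for Pdpr over the fits that left out 1 library. The Pcx call at P2 was lost when any of the P0, P2 or P4 libraries was left out (up to 0.286) and with no filter on low values, at P4 without P0 replicate 2 or either P4 library (up to 0.0867), and at P6 without P0 replicate 2 (0.0863).

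**Figure D5:**
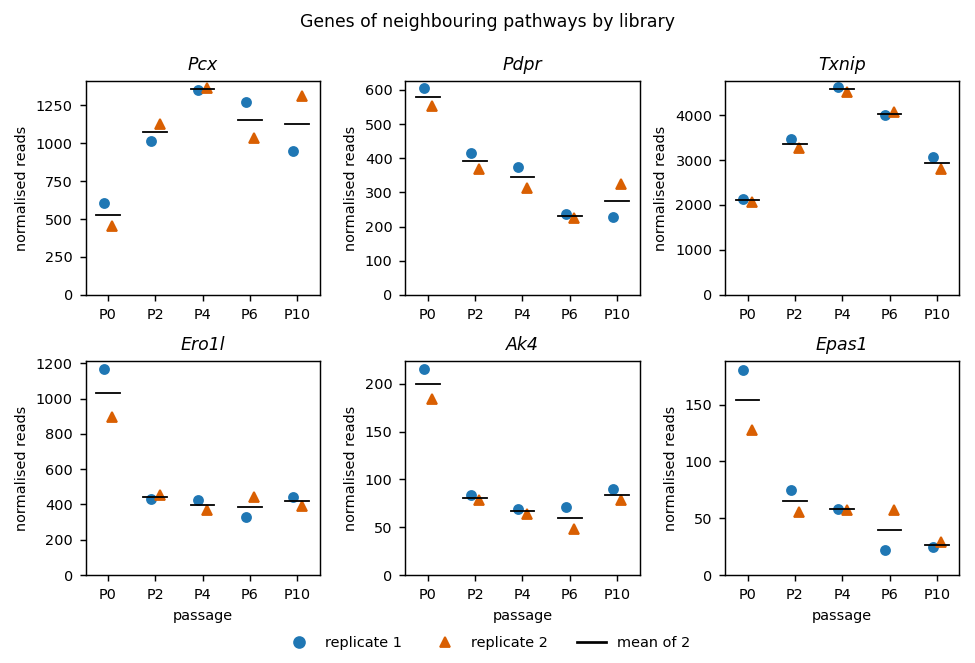
Normalised reads (y axis, from 0) by passage (x axis) in replicate 1 (circles) and replicate 2 (triangles), with the mean of the 2 as a line, for 6 genes outside the 31. Pcx and Txnip lie higher in every later library than at P0, and Pdpr, Ero1l, Ak4 and Epas1 lie lower.

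Of 11 tested genes of glucose sensing and other regulators, 1 rose at P2 and P4, 2 rose and 2 fell at P6, and none passed at P10. Beside these counts, 2.08% of all features were higher at P2 and 3.72% at P4. At P6 10.5% were higher and 10.5% lower, and at P10 8.77% and 8.25%. Txnip, a brake on glucose uptake whose transcription follows glucose phosphates in mammalian cells, was higher at P2 (log2 difference 0.67, adjusted p = 0.0482), P4 (1.12, 0.00424) and P6 (0.94, 0.00583), with 4627 and 4522 normalised reads at P4 and 2135 and 2075 at P0. The Txnip calls were each lost without P0 replicate 1. Also lost were the P2 call without any other library of P0, P2 or P4, the P4 call without either P4 library and the P6 call without P0 replicate 2, with adjusted p up to 0.354 at P2, 0.0713 at P4 and 0.0605 at P6. The P2 call was lost with no filter on low values and by edgeR as well.

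In the pentose phosphate pathway, 3 of 10 tested genes rose at P10 and 2 at P6, beside 8.77% and 10.5% of all features, none passed at P2 or P4, and none fell. The median log2 difference of the list was 0.11 at P10 and -0.35 at P6, beside 0.00 and -0.07 over all features. Those called at P10 included Prps1, which makes the ribose donor of nucleotides, and Rpe, an epimerase of pentose phosphates. Of 16 tested genes of gluconeogenesis and glycogen, none rose and 3 fell at P10, among them Gaa, the lysosomal glucosidase, and Pygl, a glycogen phosphorylase. In that list 2 rose and 3 fell at P6, 1 fell at P4 and none passed at P2. Of 21 tested genes of the citric acid cycle, 2 rose at P10, Idh3a and Mdh1, and none fell, while 2 rose and 1 fell at P6, 1 fell at P4 and none passed at P2. Of 17 other isozymes and transporters of glycolysis, none rose in any passage and 1 fell at P10, Pgm2l1, a glucose 1,6-bisphosphate synthase, with 2 lower at P6, 1 at P4 and none at P2. Beside the counts of these lists, 8.77% of all features were higher and 8.25% lower at P10, and 10.5% and 10.5% at P6. At P4 it was 3.72% and 5.52%, and at P2 2.08% and 2.07%. Prps1, Rpe, Gaa, Pygl, Idh3a, Mdh1 and Pgm2l1 did not pass at P10 without P0 replicate 1 nor, except for Pygl, without P0 replicate 2, and none of them passed from the P0 and P10 libraries alone. Mdh1 also did not pass at P10 when any of the P2 or P4 libraries or P10 replicate 2 was left out, with no filter on low values, or by edgeR. In P10 against P2 none of the genes of any further list passed by limma.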

How the data were processed

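The deposited table gives 1 signal value per feature and library, read counts scaled by a size factor for each library. The submitters' processing notes name DESeq without a version. The aligner, counter, build and annotation were not given in the sources used here. Per the labels' protocols, TRIzol RNA was depleted of ribosomal RNA with Ribo-Zero and made into stranded TruSeq libraries. Of the values, 100% are whole multiples of a step per column, within 0.01 reads, which gave back whole reads; for P4 replicate 1 the step lies near 1, so its recovery is less sure. Gene numbers (16386 of 20050) were matched to symbols through RefSeq genes of CriGri-PICRH-1.0, for names only; 20 genes were found by number and 14 by symbol.

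The main test was limma 3.58.1 (R 4.3.3) on log2(value + 1), with a trended prior, on features whose mean was 10 or more. A single model held all 10 libraries, 1 mean for each of the 5 passages and 5 residual degrees of freedom, so 1 spread per gene is pooled over passages. P-values are two-sided, adjusted by Benjamini-Hochberg over all features of a comparison. Fold changes are on the log2(value + 1) scale and understate changes of low genes. Alternatives were other pseudocounts, filters and scalings, the replicate number as a term, 2 passages alone, left-out libraries, and edgeR 4.0.16 and DESeq2 1.42.0 on recovered reads, where edgeR called 502, 1202, 2762 and 2348 features at P2, P4, P6 and P10 and 137 for P10 against P2. The procedure was tested on simulated data.

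The genes, the lists and the alternatives were chosen with earlier results of these data known. Full values are given for each gene called against P0 and for the highest of each role group. Values of other genes among the 31 and the 9 enzymes plotted together were picked after they were seen. The same holds for the pattern of 13 genes over P6 replicate 2 and the P10 libraries. From each further list, up to 3 genes with the smallest p are named; some results of these lists are not reported here.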

Additional observations from a re-analysis of the deposited data

Results flagged for a closer look

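In 3 genes, both libraries of 1 passage lay above both P0 libraries and both libraries of another passage lay below them. The share of all features with such a pattern was not counted. For Gapdh, P6 and P10 stood above P0 while P2 and P4 stood below it. The gap at P4 was slight (log2 difference from P0 -0.02, adjusted p = 0.978 by limma). The log2 differences between later passages were 1.16 for P6 against P2, 0.90 for P10 against P2, 0.86 for P6 against P4 and 0.59 for P10 against P4. For Pdha1, P10 stood above P0 while P2 and P4 stood below it, with log2 differences of 0.53 for P10 against P2 and 0.43 for P10 against P4. Here too the gap at P4 was slight (log2 difference from P0 -0.04, adjusted p = 0.923 by limma). For Pfkm, P6 stood below and P4 above P0, with a log2 difference of -1.12 for P6 against P4. Of the differences between later passages, P10 against P2 was tested by limma and did not pass (adjusted p = 0.106 for Gapdh and 0.176 for Pdha1). The others between later passages were not tested.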

How the results depend on the processing

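Counts of features and, among the 31 genes, of genes called were compared across 21 alternatives. Leaving out each library in turn gave 61 to 1578 features at P2 (561 with all), 143 to 2783 at P4 (1250), 412 to 5441 at P6 (2841), 315 to 4738 at P10 (2301) and 5 to 3500 for P10 against P2 (170). Of the 31 genes it gave 0 to 4, 0 to 6, 1 to 13, 0 to 9 and 0 to 6. Without P6 replicate 2 and P10 replicate 1 together the features were 4616, 5829, 6595, 6256 and 2968, and the genes 12, 10, 16, 19 and 16. With the 2 passages compared alone, features were 3940 at P2, 5677 at P4, 49 at P10 and 0 for P10 against P2, and genes 11 at P2, 10 at P4 and 0 at P10. DESeq2 called 1052 features at P2 (7.78%), 1818 at P4 (13.4%) and 832 for P10 against P2 (6.15%). Of the 31 genes it called 3, 5 and 2 in those comparisons (9.68%, 16.1% and 6.45%). With no filter, 102 features passed for P10 against P2. The causes were not tested.

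The replicate numbers were not shown to pair the libraries: deviations of same-numbered libraries correlated from -0.670 (P6 with P10) to 0.225. With the replicate block, 261 features passed at P2 (1.93%), 767 at P4 (5.67%), 2024 at P6 (15.0%) and 1686 at P10 (12.5%). For P10 against P2 it was 48 (0.355%). Of the 31 genes, 1 passed at P2 (3.23%), 0 at P4, 4 at P6 (12.9%) and 6 at P10 (19.4%). Gpi, Pfkfb2 and Mpc1 at P4 (adjusted p = 0.0647, 0.0536 and 0.0561 by limma) and Tpi1 and Gapdh at P6 (0.0762 and 0.0541) no longer passed. Outside the 31, the calls of Pcx and Txnip at P2, Ndrg1 at P6 and Mdh1 at P10 were lost with it as well.

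With P6 replicate 2 and P10 replicate 1 left out, the P10 differences are those of P10 replicate 2 alone. Pfkl (0.36), Aldoa (0.70), Pgk1 (0.53), Eno1 (0.58) and Ldha (0.54) were among those above 0 there and below 0 with all libraries. Over all alternatives, 94 of 3250 values changed sign, all of them for differences not called with all libraries. Among these, the P10 differences of Pfkl, Aldoa, Pgk1, Eno1 and Ldha passed the threshold with the other sign, in the fit where P10 was 1 library. No called difference changed sign in any alternative run.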
